A study of Mus musculus with 28 samples.

Results

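The subject is the chromatin of 4 genes that mark the epithelium of the lung, Sftpc, Sftpb, Nkx2-1 and Scgb1a1, in mouse lung tumours. Every called peak that overlapped 1 of 4 fixed windows of the mm9 build was taken, which gave 347 peaks out of 950445 in all 24 peak lists. The Sftpc window was chr14:70905001-70935000 with 52 peaks, the Sftpb window chr6:72240001-72280000 with 86, the Nkx2-1 window chr12:57610001-57660000 with 146 and the Scgb1a1 window chr19:9145001-9175000 with 63. The windows are 30, 40, 50 and 30 kb long. No mm9 annotation was used, so a peak could not be assigned to a promoter, exon or intron, and the placing of the windows on the genes was taken as given. In the gene order of GRCm38 the protein-coding neighbours are Bmp1 and Lgi3 for Sftpc, Atoh8 and Usp39 for Sftpb, Mbip and Nkx2-9 for Nkx2-1, and Ahnak and Asrgl1 for Scgb1a1.

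The series maps 6 histone modifications by ChIP-seq, in which an antibody pulls down the DNA bound to histones with 1 modification, with 4 libraries per mark. Its 28 samples also include 4 input DNA samples, which were not analysed here. Per the labels, tumours arose after Ad-CMV-Cre treatment of mice carrying K-RasLSL-G12D, alone or together with Mll4fl/fl. Cre recombinase switches on the K-Ras mutant allele, which all animals share, and deletes the floxed alleles of Mll4, a methyltransferase for lysine 4 of histone H3. The CMV promoter is active in many cell types, so the treatment does not restrict recombination to 1 epithelial lineage. The labels give neither the age of the mice nor the genotype of a library. Only the names of the deposited files carry a prefix, which is MLL for replicates 1 and 2 and RAS for replicates 3 and 4 of every mark. Reading the prefix as the genotype is not stated in the labels, so these libraries are called MLL-named and RAS-named.

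Alveolar type 2 cells make surfactant, whose proteins C and B are encoded by Sftpc and Sftpb, and club cells of the airway secrete the product of Scgb1a1. Nkx2-1 encodes the homeodomain transcription factor that specifies lung epithelium and activates surfactant and secretoglobin genes. Sftpc is largely restricted to alveolar type 2 cells, while Sftpb is also expressed in club cells. H3K4me3 marks active promoters, H3K4me1 enhancers, H3K27ac active promoters and enhancers, and H3K79me2 the bodies of transcribed genes, while H3K27me3 and H3K9me3 are marks of repressed chromatin.

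The 250 bases before the start of 2 of the 4 genes are shown because NKX2-1 is a known activator of Sftpb, which lets the regulated gene be set beside the regulator's own promoter. They come from RefSeq on GRCm38.p6, whose coordinates are not those of mm9. The Sftpb sequence is chr6:72304360-72304609 on the plus strand and the Nkx2-1 sequence chr12:56536909-56537158 on the minus strand. Capitals mark matches to 5 short motifs searched on both strands. The TATA box was searched as TATAAA. The NKX2-1 core was searched as CTCAAG, with CAAGTG as a second form that can overlap the first. The forkhead core was searched as TGTTTAC, with TGTTTGC as a second form.
Sftpb: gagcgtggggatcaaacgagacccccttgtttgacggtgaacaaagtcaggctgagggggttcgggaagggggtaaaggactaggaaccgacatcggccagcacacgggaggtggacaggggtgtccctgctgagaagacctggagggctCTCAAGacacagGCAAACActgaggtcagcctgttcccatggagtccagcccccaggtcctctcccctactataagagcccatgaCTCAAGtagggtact
Nkx2-1: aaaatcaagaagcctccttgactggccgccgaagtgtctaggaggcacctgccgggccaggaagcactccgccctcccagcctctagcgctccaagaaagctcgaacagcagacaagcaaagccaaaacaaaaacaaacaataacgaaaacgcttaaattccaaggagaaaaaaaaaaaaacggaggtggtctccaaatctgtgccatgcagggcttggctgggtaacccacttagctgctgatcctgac
In the Sftpb sequence CTCAAG began at positions -100 and -15 counted back from the start of the gene, and TGTTTGC lay on the opposite strand at -88. CTCAAG is found in 13.3% and TGTTTGC in 4.30% of the 32851 RefSeq promoters of this length. None of the 5 motifs occurred in the Nkx2-1 sequence. Among all promoters the TATA box motif occurs in 12.4%, the second NKX2-1 form in 11.6% and the first forkhead form in 3.17%. The Nkx2-1 sequence held 9 CG pairs and that of Sftpb 7, against a median of 6. Sftpc and Scgb1a1 had no entry in this table.

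Values are given as the share of a window covered by the called peaks of a library, since the lists hold no read counts and sequencing depth is unknown. The libraries differed in how much of the genome they covered, and for H3K27ac and H3K4me1 this moved with the file names. H3K27ac covered 0.758% and 0.839% of the genome in the MLL-named and 4.38% and 4.29% in the RAS-named libraries. H3K4me1 covered 0.588%, 0.946%, 1.77% and 2.11% in replicates 1 to 4. H3K4me3 replicate 1 covered 0.120%, against 1.02% to 1.25% in the other 3. H3K79me2 covered 4.35% to 5.91%, H3K27me3 0.410% to 3.88% and H3K9me3 0.0784% to 0.224%, and the MLL-named and RAS-named pairs overlapped for H3K4me3, H3K79me2 and H3K9me3. For H3K27me3 the values were 0.410% and 0.899% against 3.88% and 1.23%, with the MLL-named pair lower. H3K79me2 peaks of replicate 2 held 82.2% of the bases of H3K27ac replicate 2, whereas the share was 28.2% to 46.5% for replicates 1, 3 and 4. H3K4me3 replicate 1 and H3K27ac replicate 2 therefore stand apart, and mean shares and differences of these 2 marks are given with and without them. Both are MLL-named, so a mean without them also gives more weight to the RAS-named libraries. In bulk tumour tissue, fewer cells carrying a mark and less of the mark per cell cannot be told apart.

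Nkx2-1 had the highest mean H3K79me2 and H3K4me3 shares of the 4 windows. H3K79me2 covered 58.1%, 75.8%, 75.9% and 76.2% of the 50 kb window in replicates 1 to 4, a mean of 71.5% ± 8.92 (SD, n = 4). Replicate 1 was low and the other 3 lay close together. A mean as high was reached in 0.982% of 50 kb tiles of the genome, which are consecutive stretches on a fixed grid outside the windows. The stretch chr12:57626364-57636499 (10136 bp) was covered by H3K79me2 in at least 3 libraries, and 10031 bp of it in all 4.

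H3K4me3 was broad at Nkx2-1. It covered 5.63%, 37.0%, 37.8% and 44.6% of the window in replicates 1 to 4, or 31.3% ± 17.4 (SD, n = 4), and 39.8% without replicate 1. No tile among the other 52751 of 50 kb reached this mean (0%), and the highest had 26.0%. A fixed grid can split a wide domain, so this is a rank among tiles and not among domains. Peaks of 13355 bp in replicate 2 and 14318 bp in replicate 4 ran across the middle of the window, where replicate 3 had peaks of 7275 and 5630 bp. Replicate 1 had 9 short peaks, of at most 512 bp, all of them within the 2 widest peaks of replicate 4.

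H3K27ac covered 18.2% and 30.02% of the Nkx2-1 window in the MLL-named libraries and 64.9% and 64.8% in the RAS-named ones, a mean of 44.5% ± 24 (SD, n = 4), and 49.3% without replicate 2. The MLL-named and RAS-named pairs did not overlap, and the MLL-named pair is likewise the lower in 72.1% of 50 kb tiles with H3K27ac. A mean over 4 libraries as high as here was found in 0.275% of all 50 kb tiles. Peaks were shorter in the MLL-named lists as a whole, with a median width of 233 and 216 bp over the genome against 2051 and 1702 bp in the RAS-named lists. In this window there were 23 and 31 separate peaks in replicates 1 and 2 against 1 peak of 33291 bp in replicate 3 and 2 peaks in replicate 4. Closing gaps of up to 1000 bp raised the MLL-named values to 28.3% and 45.6% and left the others at 64.9%. Of the H3K27ac bases here, 92.0% to 100% lay in H3K79me2 peaks of the same number, against 28.2% to 82.2% over the genome.

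H3K4me1 at Nkx2-1 was absent from replicate 1 and covered 2.04%, 8.39% and 8.06% in replicates 2 to 4, and a mean as high as its 4.62% ± 4.24 (SD, n = 4) was found in 8.65% of 50 kb tiles. The longest stretch shared by 3 libraries was chr12:57640034-57640291 (258 bp), beyond the right end of the main H3K4me3 peaks of replicates 2 and 3 and inside that of replicate 4. In replicates 2, 3 and 4, 0%, 9.80% and 33.6% of H3K4me1 bases lay in H3K4me3, against 18.6%, 10.1% and 8.40% over the genome. The 7275 bp stretch chr12:57626485-57633759, covered by H3K4me3 in at least 3 libraries, held no H3K4me1 in any library, while H3K79me2 covered all of it in 4 of 4.

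**Figure D1:**
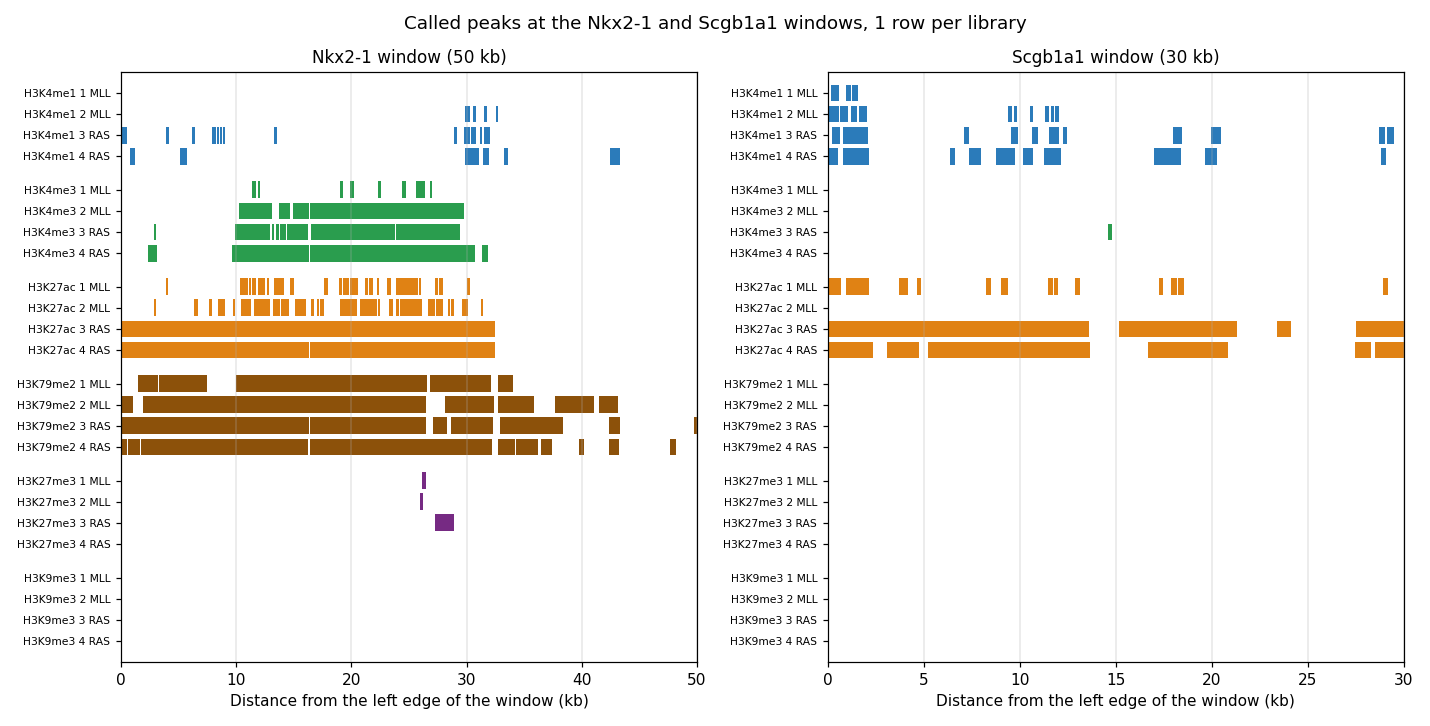
Called peaks in the Nkx2-1 and Scgb1a1 windows, with 1 row per library (mark, replicate number and file name prefix) and the distance from the left edge of the window in kb on the horizontal axis. Nkx2-1 shows overlapping H3K4me3, H3K27ac and H3K79me2, whereas Scgb1a1 has H3K4me1 and H3K27ac, no H3K79me2 and a single H3K4me3 peak of 177 bp.

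At Sftpc, the gene of surfactant protein C, a wide H3K4me3 peak stood in the middle of the window. H3K4me3 covered 1.03%, 39.0%, 30.1% and 38.9% of the window in replicates 1 to 4, or 27.3% ± 18.0 (SD, n = 4), and 36.0% without replicate 1. Replicates 2, 3 and 4 carried central peaks of 6883, 5186 and 6779 bp, each with a score of 3100. This score is shared by other peaks of these lists, among them peaks at Nkx2-1. The best rank that the tied peaks can take lay at 0.310%, 0.802% and 0.386% of the lists. A mean this high was reached in 0.0273% of 30 kb tiles, 24 of 87929. The stretch shared by at least 3 libraries was chr14:70918765-70923950 (5186 bp), and the single peak of replicate 1 (309 bp) lay inside it.

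A second H3K4me3 region lay at the right edge of the Sftpc window. Its main peaks were 3515, 3461 and 4904 bp long in replicates 2, 3 and 4, beginning near chr14:70930017, and replicate 1 had none. The longest H3K79me2 stretch shared by 3 libraries, chr14:70931684-70933177 (1494 bp), lay there and not at the central peak. Whether this region belongs to Sftpc or to a neighbouring gene was not tested.

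H3K27ac covered 19.4% and 5.73% of the Sftpc window in the MLL-named and 64.0% and 66.9% in the RAS-named libraries, or 39.0% ± 31.0 (SD, n = 4), and 50.1% without replicate 2. A mean of 39.0% or more was found in 0.761% of 30 kb tiles. The central H3K4me3 stretch was covered by H3K27ac for 55.5%, 27.3%, 100% and 100% of its length in replicates 1 to 4. Every library thus carried some H3K27ac at the centre, with gaps in the MLL-named ones.

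H3K79me2 varied between libraries at Sftpc. It covered 34.2%, 12.5%, 5.14% and 16.01% of the window, or 16.9% ± 12.4 (SD, n = 4), and 11.2% without replicate 1. Coverage as high on average was found in 10.3% of 30 kb tiles, and the ratios to genome-wide coverage were 6.40, 2.11, 0.950 and 3.68. The only peak of replicate 2 (chr14:70911288-70915022) and the best-scored of replicate 1 (chr14:70911712-70915777) lay in the left part of the window. Replicates 3 and 4 had no H3K79me2 peak there. Within the central H3K4me3 stretch H3K79me2 covered 54.4% in replicate 1, 12.4% in replicate 4 and none in replicates 2 and 3. In replicates 2 and 3 the stretch thus carried H3K4me3 without H3K79me2. H3K4me1 covered 1.01%, 0.850%, 4.51% and 7.43% of the window, a mean that 10.6% of 30 kb tiles reached, and touched no base of the central stretch, and no stretch of it was shared by 3 libraries.

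At Sftpb, the gene of surfactant protein B, H3K27ac had the highest mean share of the 6 marks, as it did at Sftpc and Scgb1a1. In replicate 2 another mark was higher at each of these genes, and in replicate 1 at Sftpc, where H3K79me2 had 34.2% and H3K27ac 19.4%. Relative to genome-wide coverage H3K4me3 had the higher mean at Sftpc (ratio 25.2 against 15.7), and H3K27ac stayed highest at Sftpb and Scgb1a1. At Sftpb H3K27ac covered 30.6%, 12.7%, 73.2% and 81.9% of the 40 kb window in replicates 1 to 4, or 49.6% ± 33.3 (SD, n = 4), and 61.9% without replicate 2. A mean this high was reached in 0.187% of 40 kb tiles, 123 of 65942. In both RAS-named libraries a peak of 46859 or 46993 bp ran in from outside the left edge of the window and ended within 100 bp of the next peak, whose left end was chr6:72256262 in replicate 3. MLL-named replicates 1 and 2 had 24 and 13 shorter peaks, whose best-scored ones ranked 215 of 61536 and 827 of 80030 in their lists. Both of these best peaks lay at the same place, from chr6:72256421 and chr6:72256407.

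H3K4me3 covered 0.583%, 17.7%, 16.1% and 22.1% of the Sftpb window, or 14.1% ± 9.37 (SD, n = 4), and 18.6% without replicate 1. A mean this high was found in 0.449% of 40 kb tiles. The longest shared stretch was chr6:72254250-72256078 (1829 bp), and the single 233 bp peak of replicate 1 lay just to its right. H3K27ac covered 93.1%, 51.4%, 100% and 100% of that stretch.

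H3K4me1 at Sftpb lay to the left of H3K4me3, except for 1 peak of 344 bp in replicate 3. It covered 0.428%, 0.888%, 7.44% and 17.2% of the window, with 1, 2, 10 and 11 peaks in replicates 1 to 4. Its mean of 6.48% was reached in 6.21% of 40 kb tiles, and it covered 2.92% on average without replicate 4. None of its bases in this window coincided with H3K4me3 of the same number in any of the 4 pairs, against 1.21% to 18.6% of H3K4me1 bases over the genome. At Sftpc this share was 0% in replicates 1 and 2, and 19.8% and 25.6% in replicates 3 and 4, where the genome had 10.1% and 8.40%. H3K79me2 was absent from replicates 2 and 3 and covered 4.70% and 7.73% in replicates 1 and 4, over the H3K4me3 region. A mean of 3.11% ± 3.80 (SD, n = 4) or more was found in 17.5% of 40 kb tiles, and the mean was 1.57% without replicate 4.

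**Figure D2:**
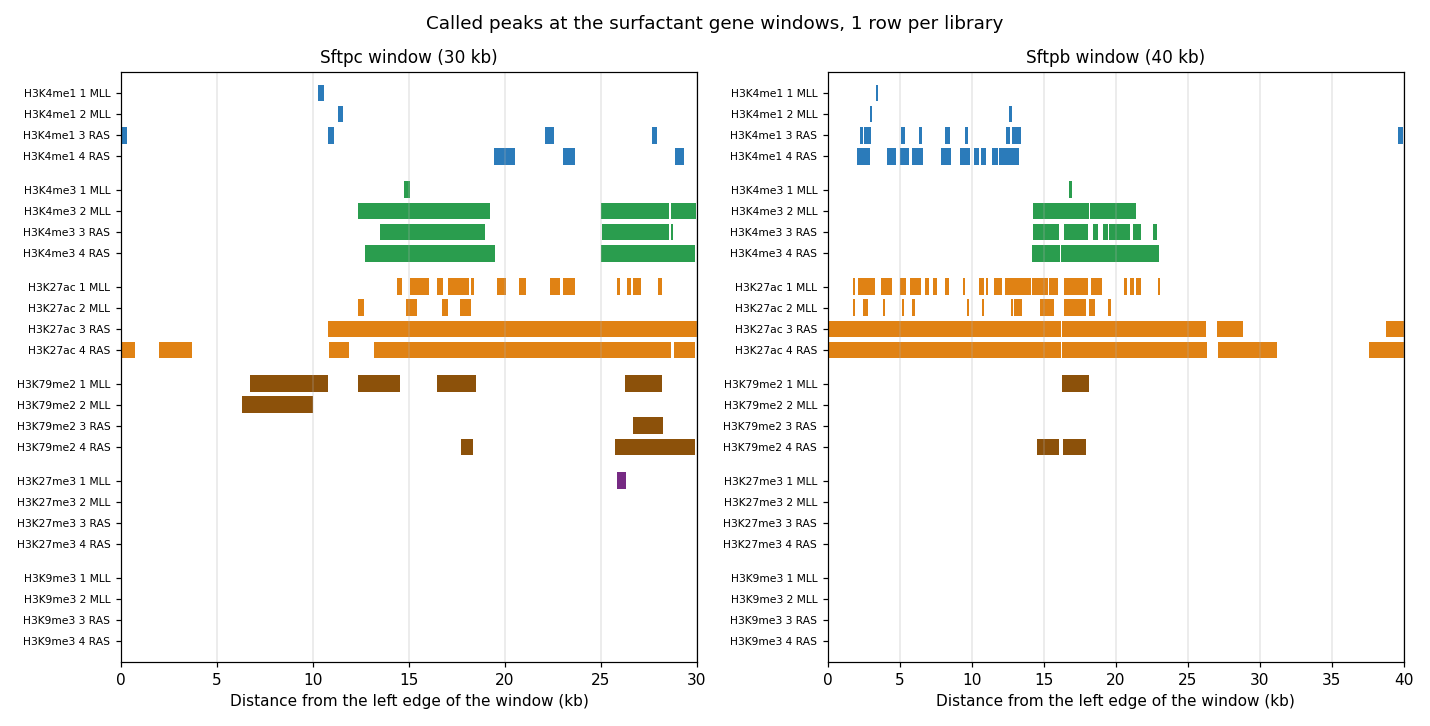
Called peaks in the Sftpc and Sftpb windows, with 1 row per library and the distance from the left edge of the window in kb on the horizontal axis. The central H3K4me3 peaks recur in replicates 2, 3 and 4, H3K27ac is broken into short peaks in MLL-named libraries, and H3K79me2 is patchy.

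Scgb1a1 is the club cell gene. Its window carried H3K4me1 and H3K27ac, and almost no H3K4me3. H3K4me1 covered 3.31%, 8.89%, 17.3% and 25.1% of the window in replicates 1 to 4, or 13.6% ± 9.55 (SD, n = 4), the highest H3K4me1 share of the 4 windows. A mean this high was found in 2.38% of 30 kb tiles. H3K27ac covered 16.8%, 0%, 76.5% and 63.2%, or 39.1% ± 36.5 (SD, n = 4), and 52.2% without replicate 2, the only H3K27ac library with no peak here. A mean of 39.1% or more was found in 0.76% of 30 kb tiles.

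The H3K4me3 lists held 1 peak in the Scgb1a1 window, of 177 bp in replicate 3, at a score of 55.4 and rank 27413 of 30191 in its list. A mean of 0.148% or more was found in 17.6% of 30 kb tiles. H3K79me2 had no peak in any library, which is also the case in 81.1% of 30 kb tiles. The longest H3K27ac stretch shared by 3 libraries, chr19:9145936-9147155 (1220 bp), lay at the left edge, and H3K4me1 covered 48.9%, 66.6%, 95.9% and 99.6% of it in replicates 1 to 4. Whether this stretch belongs to Scgb1a1 or to a neighbouring gene was not tested. Over the whole window, 98.8%, 0%, 100% and 99.7% of the H3K4me1 bases lay in H3K27ac peaks of the same number. H3K4me1 also lay mostly in H3K27ac at the other genes in the RAS-named libraries, with 77.8% and 100% at Sftpc, 100% and 100% at Sftpb and 100% and 70.6% at Nkx2-1. In the MLL-named libraries it was 0% and 0% at Sftpc, 0% and 12.96% at Sftpb and 26.5% in replicate 2 at Nkx2-1. Over the genome these shares were 19.2%, 21.5%, 68.2% and 68.9% in replicates 1 to 4.

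**Figure D3:**
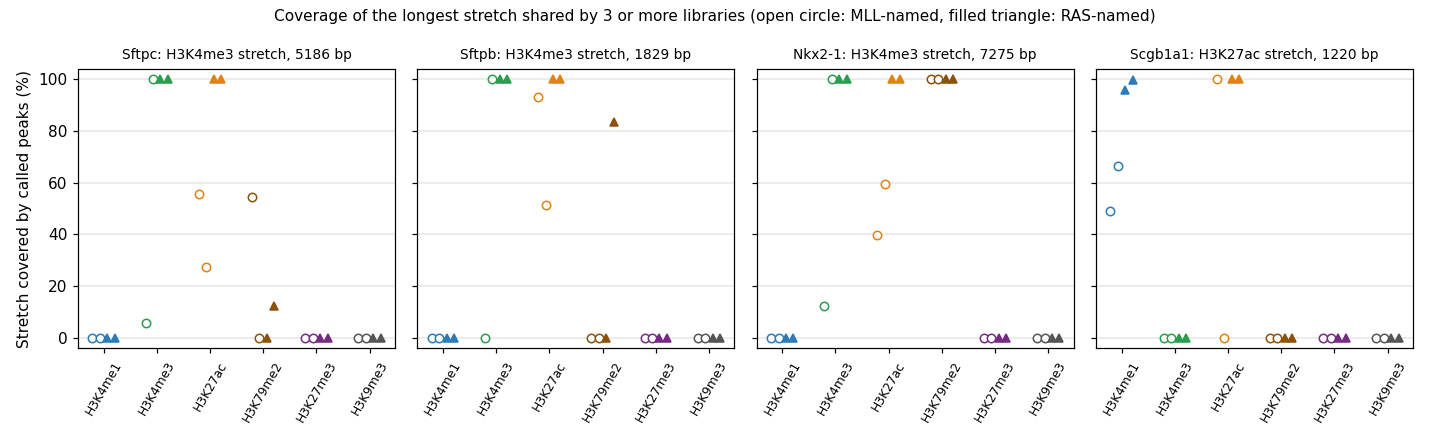
Share of the longest stretch covered in at least 3 libraries (H3K4me3 at Sftpc, Sftpb and Nkx2-1, H3K27ac at Scgb1a1) that each library's peaks cover, in percent, by mark. H3K79me2 fills the Nkx2-1 stretch in 4 of 4 libraries and is at 0% in 2 of 4 at Sftpc, 3 of 4 at Sftpb and 4 of 4 at Scgb1a1. The mark that defined a stretch is high in 3 libraries by construction.

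The repressive marks had few peaks, as in most of the genome. H3K9me3 had no peak in any window or library, which is the case in 88.2%, 85.3% and 82.6% of tiles of 30, 40 and 50 kb. H3K27me3 had no peak at Sftpb (79% of 40 kb tiles) or Scgb1a1 (81.7% of 30 kb tiles), and at Sftpc 1 peak of 448 bp in replicate 1, within the right-edge region that carried H3K4me3 in the other 3 libraries (a mean as high in 16.4% of 30 kb tiles). At Nkx2-1 it had 1 peak each of 390, 252 and 1569 bp in replicates 1, 2 and 3, which covered 0.780%, 0.504% and 3.14% of the window, and none in replicate 4 (a mean as high in 16% of 50 kb tiles). Of the bases of the 3 Nkx2-1 peaks, 79.2% to 100% were also covered by H3K4me3 of the same number, against 1.14% to 6.17% of H3K27me3 bases over the genome for those replicates. H3K79me2 covered 100%, 100% and 79.2% of the same bases, against 0.543% to 0.676% over the genome. All 3 peaks were weak, with scores of 58.04, 55.19 and 91.25. Their ranks lay 71.5%, 82.8% and 63.0% of the way down their lists. The Sftpc peak shared 0% of its bases with H3K4me3 and 14.1% with H3K79me2 of replicate 1. A tumour sample holds several cell types, and whether H3K27me3 and an active mark sit in the same cells was not tested.

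Across the 4 windows, H3K4me3 had a peak in all 4 libraries at 3 genes, all but Scgb1a1. The same holds in 5.78%, 7.56% and 9.25% of tiles of 30, 40 and 50 kb. H3K27ac was found in all 4 libraries at 3 genes, all but Scgb1a1 (tiles 9.14%, 11.4% and 13.4%), and at all 4 without replicate 2. H3K4me1 was in all 4 libraries at 3 genes, all but Nkx2-1 (tiles 11.7%, 14.4% and 16.9%), and H3K79me2 at Sftpc and Nkx2-1 (tiles 12.6%, 14.7% and 16.6%). A peak in every library need not lie at the same place. No base was covered in all 4 libraries by H3K79me2 at Sftpc, or by H3K4me1 at Sftpc and Sftpb. H3K27me3 and H3K9me3 reached all 4 libraries in no window, against 5.14%, 6.28% and 7.47% of tiles for H3K27me3 and 1.14%, 1.49% and 1.8% for H3K9me3. Tiles include gene-free sequence, so they are a wide background for windows drawn around genes.

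**Figure D4:**
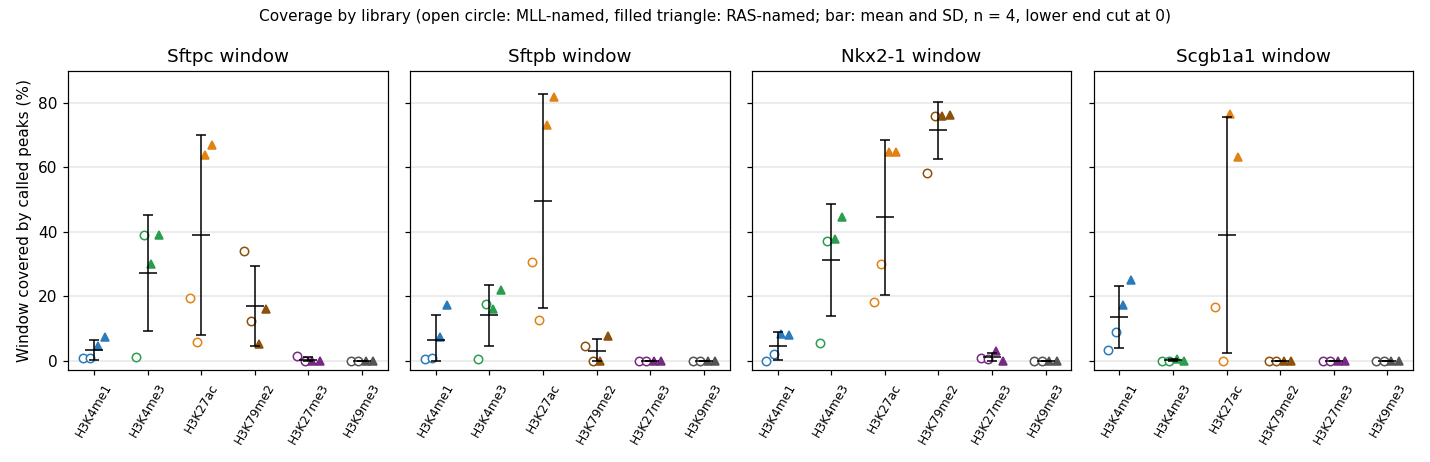
Share of each window covered by called peaks, in percent, for each mark, with open circles for MLL-named and filled triangles for RAS-named libraries, and the mean and SD of 4 libraries (lower end cut at 0). H3K27ac libraries form a low MLL-named and a high RAS-named pair in every window, as in 68.2% to 72.1% of tiles with H3K27ac. After division by genome-wide coverage this order is lost in every window. H3K4me3 replicate 1 is low at 3 genes, and H3K9me3 is at 0 throughout.

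**Figure D5:**
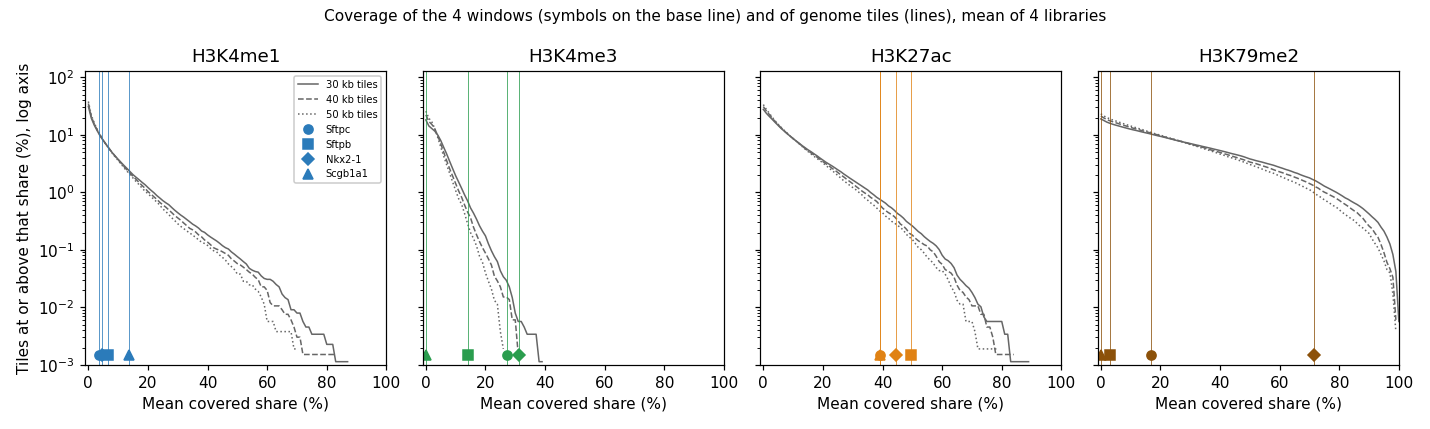
Percent of genome tiles (logarithmic vertical axis) whose mean coverage over 4 libraries is at or above the value on the horizontal axis, for tiles of 30, 40 and 50 kb, with the 4 windows as symbols on the base line. For H3K4me3, means as high as at Sftpc, Sftpb and Nkx2-1 are found in 0.0273%, 0.449% and 0% of tiles, and for H3K79me2 in 10.3%, 17.5% and 0.982%.

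To ask whether active marks covered the genes more than the Polycomb mark H3K27me3, each of the 4 active marks was set against H3K27me3 in each window, which made 16 comparisons. All 4 libraries of the active mark lay above all 4 of H3K27me3 in 9 of them. These were H3K27ac and H3K79me2 at Sftpc, H3K4me1, H3K4me3 and H3K27ac at Sftpb, H3K4me3, H3K27ac and H3K79me2 at Nkx2-1, and H3K4me1 at Scgb1a1. Each of the 9 had a two-sided exact permutation p of 0.0286, the smallest that 4 libraries against 4 allow. Such a separation is frequent in tiles with a peak of either mark, at 23.4%, 24.8% and 26% for H3K4me1, 13.4%, 14.3% and 15.1% for H3K4me3, 20%, 21.7% and 22.9% for H3K27ac and 34.8%, 35.8% and 36.9% for H3K79me2 in tiles of 30, 40 and 50 kb.

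After Benjamini-Hochberg adjustment over all such tiles none of the 16 passed 0.05, and 9 had an unadjusted p below it. No tile passed either (0%), so at this number of libraries the adjusted test called nothing anywhere. The lowest adjusted exact permutation p was 0.0554, for H3K79me2 at Nkx2-1, where the difference in means was 70.4 percentage points. For H3K27ac it was 0.0845 at Nkx2-1 (43.4 points), 0.0891 at Sftpb (49.6 points), 0.0951 at Sftpc (38.6 points) and 0.275 at Scgb1a1 (39.1 points). Without H3K27ac replicate 2 these differences were 48.2, 61.9, 49.7 and 52.2 points, with adjusted exact permutation p-values of 0.0792, 0.0812, 0.0835 and 0.0835. For H3K4me3 at Sftpc the difference was 26.9 points (adjusted exact permutation p 0.207), and 35.6 points without replicate 1 (0.0855). For H3K4me3 it was 30.1 points at Nkx2-1 (0.103) and 14.1 points at Sftpb (0.107), and 38.7 (0.0816) and 18.6 points (0.0832) without replicate 1. At Scgb1a1 the H3K4me3 difference was 0.148 points with replicate 1 and 0.197 without it. No comparison had the active mark lower, and H3K79me2 at Scgb1a1 was at 0 in both groups.

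Values by file name were then set side by side. With 2 libraries against 2 the smallest exact permutation p is 0.33, so no test was made. The tile shares beside these orders count only tiles with a peak of the mark in at least 1 library, not the whole grid. Both MLL-named H3K4me1 libraries lay below both RAS-named ones in 4 of 4 windows, which is the case in 43.9%, 45.2% and 46.3% of tiles of 30, 40 and 50 kb with H3K4me1. The means were 0.930% against 5.97% at Sftpc, 0.658% against 12.3% at Sftpb, 1.02% against 8.22% at Nkx2-1 and 6.10% against 21.2% at Scgb1a1.

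The libraries' genome-wide coverage differed in the same direction, so each value was also divided by the share of the genome its library covered. For H3K4me1 the order then held in 4 of 4 windows, against 24.3%, 24.3% and 24.5% of tiles with H3K4me1. At Sftpb the H3K4me1 ratios were 0.727, 0.938, 4.19 and 8.16 in replicates 1 to 4, and the MLL-named pair stood near the genome average. At Nkx2-1 they were 0, 2.16, 4.73 and 3.82, at Sftpc 1.72, 0.899, 2.54 and 3.53, and at Scgb1a1 5.62, 9.40, 9.74 and 11.9. Replicates 2 and 3 were close at Scgb1a1. When peaks below the median score of 92.2 were dropped, the order held in 2 of 4 windows, and the MLL-named minus RAS-named difference in means was -2.90 percentage points at Sftpc, -7.03 at Sftpb, -5.27 at Nkx2-1 and -13.8 at Scgb1a1. The parts of genotype, depth and enrichment cannot be told apart here.

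H3K27ac was also lower in both MLL-named libraries in 4 of 4 windows, against 68.2%, 70.6% and 72.1% of tiles with H3K27ac. After division by genome-wide coverage this held in 0 of 4, against 33.8%, 34% and 34% of tiles with H3K27ac. The ratios at Nkx2-1 were 24.1 and 35.8 in the MLL-named and 14.8 and 15.1 in the RAS-named libraries, the opposite order, which is seen in 10.4%, 11.1% and 11.5% of tiles of 30, 40 and 50 kb with H3K27ac. At Sftpb they were 40.4, 15.1, 16.7 and 19.1, at Sftpc 25.6, 6.82, 14.6 and 15.6, and at Scgb1a1 22.1, 0, 17.5 and 14.7. Replicate 1 was the highest at Sftpb, Sftpc and Scgb1a1, and replicate 2 the lowest.

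H3K4me3 and H3K79me2 showed the MLL-named pair lower in 1 window each, Nkx2-1 in both cases. This is the case in 11.1%, 10.8% and 10.9% of tiles of 30, 40 and 50 kb with H3K4me3, and in 6.42%, 6.4% and 6.37% of those with H3K79me2. For H3K4me3 this was 5.63% and 37.0% against 37.8% and 44.6%, where replicates 2 and 3 were nearly equal. For H3K79me2 it was 58.1% and 75.8% against 75.9% and 76.2%, a gap between replicates 2 and 3 that is far smaller than that between replicates 1 and 2. The MLL-named pair was higher in 0 of the 3 windows with a H3K79me2 peak, against 42.1%, 43% and 43.3% of tiles with the mark. After division by genome-wide coverage the H3K79me2 count stayed at 1 (12.7%, 13% and 13.3% of tiles with the mark). For H3K4me3 it was also 1 (17.8%, 17.6% and 17.7% of tiles with the mark), but at Sftpb, with ratios of 4.84 and 14.1 against 15.7 and 17.9, and no longer at Nkx2-1, with 46.7 and 29.6 against 37.0 and 36.1. For H3K27me3 the MLL-named pair was lower in 0 of the 2 windows with a peak of it, against 34.2%, 34.9% and 35.7% of tiles with the mark, and H3K9me3 had no peak to compare.

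The 4 windows were compared with each other through their shares in the 24 libraries, as a description. Pearson's r was 0.916 between Sftpb and Scgb1a1, 0.880 between Sftpc and Sftpb, 0.708 between Sftpc and Scgb1a1 and 0.663 between Sftpc and Nkx2-1. It was 0.463 between Sftpb and Nkx2-1 and 0.322 between Nkx2-1 and Scgb1a1. The points share their libraries, and part of r is the difference between marks and in covered genome. With values divided by genome-wide coverage, r was 0.797 for Sftpc and Sftpb, 0.730 for Sftpc and Nkx2-1, 0.661 for Sftpb and Scgb1a1 and 0.580 for Sftpb and Nkx2-1. It was 0.263 for Sftpc and Scgb1a1 and -0.01 for Nkx2-1 and Scgb1a1, so the order of the pairs changed with the scaling.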

How the data were processed

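Peak lists of 24 ChIP-seq libraries were used. Per the submitters' processing notes, CASAVA 1.7, Bowtie, MACS and deepTools were used with mm9. The notes assign no steps, and further settings are not given in the sources used here. The deposited score of a peak is the authors' own value, at least 50 in every list. It was used to rank peaks within lists and to cut each list to its best 5224. In another alternative the median score of all 24 lists pooled, 92.2, was applied to every list as a single cut-off. Each list is from 1 library, and the file names pair it with a library G of the same number, which the labels do not describe.

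Members, lists and the rule for named regions (per window and mark, the longest stretch covered in at least 3 libraries) were chosen with earlier results of these data known. Groups are the marks named in the titles. Nothing in the labels says that replicates are separate animals, so p-values measure only the spread between these libraries. Coverage was computed with Python 3.11.15 and NumPy 2.4.6 from merged peaks on 20 chromosomes (autosomes and X), as a percent of the window. An exact two-sided permutation test over 70 splits was run on each window and each equally long tile, with Benjamini-Hochberg adjustment over them. The coverage and test steps were tested on simulated data. The background shares leave out the 7 or 8 tiles that overlap a window. Alternatives are listed in the closing section. The other lung genes and markers of other cells in the plan were not placed, for want of an mm9 annotation in the sources used here.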

Additional observations from a re-analysis of the deposited data

Results flagged for a closer look

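In groups of 4 libraries of a mark and window, a library was singled out where its gap to the nearest other library took up more of the group's range than Dixon's 95% critical value allows. Of 17 groups with any coverage, 3 had such a library. The rule marks about 1 in 20 groups by chance, but that rate does not apply where 3 libraries are at 0, as in 2 of the 3. H3K79me2 replicate 1 covered 58.1% of the Nkx2-1 window, against 75.8% to 76.2% in the other 3. H3K27me3 replicate 1 covered 1.49% of the Sftpc window, with 0% in the other 3. H3K4me3 replicate 3 covered 0.590% of the Scgb1a1 window, again with 0% in the other 3. The last 2 rest on 1 peak each, and the causes were not tested.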

How the results depend on the processing

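None of the 16 comparisons with H3K27me3 reversed or passed the adjusted threshold of 0.05 under any alternative. The adjusted exact p closest to it was 0.0546, for H3K79me2 at Nkx2-1. Leaving out a replicate number gives 3 libraries against 3, whose smallest exact permutation p is 0.1, and without replicate 3 the H3K4me3 difference at Scgb1a1 was 0. When each list was cut to its best 5224 peaks, the H3K79me2 difference at Nkx2-1 went from 70.4 to 26.7 points (exact p 0.429) and that of H3K4me3 at Sftpb from 14.1 to 5.29 (exact p 0.429). That of H3K27ac went from 38.6 to 29.7 at Sftpc (exact p 0.143) and from 39.1 to 12.4 at Scgb1a1 (exact p 0.429), and that of H3K4me1 at Scgb1a1 from 13.6 to 1.10 (exact p 1). It was 0 for H3K4me1 at Sftpc, Sftpb and Nkx2-1, for H3K79me2 at Sftpc and Sftpb, and for H3K4me3 at Scgb1a1. Full separation from H3K27me3 was also lost relative to genome-wide coverage for H3K79me2 at Sftpc (exact p 0.171). Without peaks under the median score it was lost for H3K4me1 (exact p 1) and H3K4me3 (0.143) at Sftpb and H3K27ac at Sftpc (0.143). With windows 5000 bp shorter on each side it was lost for H3K79me2 at Sftpc and for H3K4me1 at Sftpb and Scgb1a1 (exact p 0.143 each). Full separation was gained for H3K4me3 at Sftpc relative to genome-wide coverage, with the best 5224 peaks and with the shorter windows (exact p 0.0286 each). The shorter windows also gave it for H3K4me1 at Sftpc (exact p 0.0286). The titles share replicate numbers between marks. With the replicate block, an exact sign-flip test whose smallest p is 0.125, the H3K79me2 difference at Nkx2-1, 70.4 points by construction, had an adjusted exact p of 0.236. There was no call that the block could change. Deviations of same-numbered libraries correlated over 30 kb tiles at -0.24 to 0.10 in 16 pairs of an active mark with H3K27me3. Each r sets different marks against each other, so it cannot show whether same-numbered libraries share tissue. The main test did not treat the numbers as pairs.

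Counts of windows moved more. When peaks under the median score were dropped, H3K4me1 was in every library in 1 window, H3K4me3 in 1, the MLL-named H3K4me1 pair was lower in 2 and the H3K79me2 pair in 0. With the best 5224 peaks, which leave no H3K4me1 in 3 of the windows, H3K4me1 was in every library in 0 windows and H3K79me2 in 0, while the MLL-named pair was lower in 0 for H3K4me1 and 3 for H3K4me3. With gaps of up to 1000 bp closed, it was lower in 2 for H3K4me3 and 0 for H3K79me2. With windows 5000 bp shorter on each side, H3K4me1 was in every library in 1 window, H3K79me2 in 1, and the H3K79me2 pair was lower in 0. Relative to genome-wide coverage, the H3K27ac pair was lower in 0. Leaving out a replicate gave 1 to 3 windows for the H3K4me3 pair, 1 to 2 for the H3K79me2 pair, 0 to 1 for the H3K27me3 pair and 0 to 1 for H3K27me3 in every remaining library. The cause was not tested.

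Without replicate 4, mean H3K4me1 coverage at Sftpb was 2.92%, against 6.48% with it, and at Sftpc 2.12% against 3.45%. Without replicate 3, mean H3K27me3 coverage at Nkx2-1 was 0.428%, against 1.11% with it. The alternative without H3K27ac replicate 2 and H3K4me3 replicate 1 was chosen after seeing the data. Depth is unknown, so a missing peak means not detectable in that list.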
